A study of Mus musculus with 10 samples.

Results

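Ddc encodes aromatic L-amino acid decarboxylase, the enzyme that makes dopamine from L-DOPA and serotonin from 5-hydroxytryptophan. The values of Ddc and of 4 genes beside it on mouse chromosome 11, Fignl1, Grb10, Cobl and Ikzf1, were followed here through female fetal germ cells with and without the TFIID subunit gene Taf4b. These 5 genes are members of a table of 55536. They were found by symbol in the count and TPM tables. Ddc was chosen by its adjusted p in the authors' deposited table, where it is 1 of 3 genes under 0.05 beside Taf4b and Sp3os, and its difference between deficient and fertile libraries is therefore given as a description with no test. The other 4 were picked for their position near Ddc.

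The cells were sorted by fluorescence as live, GFP-positive cells from gonads at E14.5, counted in days of embryonic life. The parents were homozygous for an Oct4-EGFP transgene and heterozygous for the Taf4b deficiency, so the transgene was shared by every group, and the labels give the strain as C57BL/6. Bulk RNA was sequenced from 4 Taf4b-deficient libraries, labelled infertile, and from 4 Taf4b-heterozygous and 2 Taf4b-wildtype libraries, both labelled fertile. The deficient and wildtype cells therefore share everything the labels state apart from the Taf4b genotype, the fertility that goes with it and the litter date, which was January 29, March 1 or March 7. The labels do not say how many fetuses gave a library, so a p-value here speaks of the variation among these samples alone, part of which may be technical. Total counts per library ran from 28949924 to 44166320.

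AADC, as the Ddc product is called, works downstream of the tyrosine and tryptophan hydroxylases in nerve and neuroendocrine cells, and is also made in kidney and other epithelia that release no transmitter. The mouse gene has alternative first exons, and Ddc and Grb10 lie in an imprinted domain. Fignl1 encodes an AAA ATPase that acts in homologous recombination, the process female germ cells enter at this age. Grb10 encodes an adaptor that restrains insulin and IGF receptor signalling, Cobl an actin nucleator, and Ikzf1 the zinc finger factor Ikaros of the lymphoid lineage.

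On GRCm38, Ddc (ENSMUSG00000020182) spans chromosome 11, 11814101 to 11898144, on the minus strand, with 10 annotated transcripts. Fignl1 (ENSMUSG00000035455), also on the minus strand at 11787431 to 11808962, lies 5.139 kb past the 3′ end of Ddc and is the nearest member. Grb10 (ENSMUSG00000020176) lies on the same strand at 11930508 to 12038683, and its 3′ end is 32.36 kb from the 5′ end of Ddc. Ikzf1 (ENSMUSG00000018654), the one member on the plus strand, occupies 11685003 to 11772926, 41.18 kb from Ddc. Cobl (ENSMUSG00000020173) occupies 12236608 to 12464960 on the minus strand, 338.5 kb away.

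All 5 members matched the RefSeq promoter table (GRCm38.p6), with 9 start sites among them. The 250 bases before both tabled Ddc starts and before the Fignl1 start are shown because Ddc differed between genotypes and its nearest neighbour did not pass the test. They are read on the minus strand, 5′ to 3′, with the start just after the last base. Capitals mark matches, on either strand, to the GC box GGGCGG, known from Sp factor sites, to the CCAAT box CCAAT, known from NF-Y sites, and to the TATA box TATAAA, known from TBP sites. No match shown overlapped another.
Ddc upstream start (chr11:11898145-11898394): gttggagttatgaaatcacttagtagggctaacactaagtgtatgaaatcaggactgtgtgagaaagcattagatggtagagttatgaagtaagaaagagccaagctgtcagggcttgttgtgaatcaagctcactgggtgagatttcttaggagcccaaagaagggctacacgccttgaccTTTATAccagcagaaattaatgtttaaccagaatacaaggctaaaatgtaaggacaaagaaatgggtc
Ddc downstream start (chr11:11890409-11890658): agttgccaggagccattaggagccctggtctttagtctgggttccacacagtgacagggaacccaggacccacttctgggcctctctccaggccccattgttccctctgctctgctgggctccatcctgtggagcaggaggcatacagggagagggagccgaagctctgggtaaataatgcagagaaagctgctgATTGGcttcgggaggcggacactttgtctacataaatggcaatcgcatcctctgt
Fignl1 (chr11:11808963-11809212): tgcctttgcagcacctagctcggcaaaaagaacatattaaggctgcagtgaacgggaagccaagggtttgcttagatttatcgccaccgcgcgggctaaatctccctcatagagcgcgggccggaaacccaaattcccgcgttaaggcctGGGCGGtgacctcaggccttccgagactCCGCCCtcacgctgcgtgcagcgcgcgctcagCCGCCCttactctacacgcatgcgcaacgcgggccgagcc

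These windows differed in base composition and in motif matches. Over the full window of 250 bases before to 50 after the start, GC content was 41.3% at the upstream Ddc start, 54.3% at the downstream one and 62.0% at Fignl1, beside a median of 52.7% over 32851 tabled promoters. The upstream Ddc window held 1 TATAAA match, which begins 68 bases before the start, and neither other motif. The downstream window held 1 CCAAT match, beginning 55 bases before the start, and neither other motif. The Fignl1 window held 3 GGGCGG matches and neither other motif. Of all tabled promoters, 35.7% held the GC box, 37.4% the CCAAT box and 13.6% the TATA box. The first starts of Grb10, Cobl and Ikzf1 were GC-rich (80.0%, 75.3% and 81.3%) and held 5, 3 and 2 GGGCGG matches, while their other starts held no match to any of the motifs. Counts per gene do not show which start the reads came from.

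Ddc was higher in every deficient library than in every fertile one. Levels here are CPM, read counts relative to library size, scaled between libraries by TMM, a factor that corrects for differing RNA makeup. The 4 deficient libraries gave 28.7, 34.2, 27.8 and 30.0 CPM. The heterozygous libraries gave 17.1, 19.0, 18.7 and 18.3 CPM, and the wildtype libraries 19.9 and 19.5 CPM. The groups did not overlap, and all fertile libraries lay within a narrow band of 17.1 to 19.9 CPM. Deficient libraries averaged 30.2 ± 2.83 CPM (SD, n = 4), heterozygous ones 18.3 ± 0.822 (SD, n = 4) and wildtype ones 19.7 ± 0.239 (SD, n = 2).

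The fitted log2 fold change of Ddc, deficient minus the average of the heterozygous and wildtype groups, was 0.67 (SE 0.12), or 1.59-fold. It was 0.73 (SE 0.13) against heterozygous and 0.62 (SE 0.16) against wildtype libraries, which share the same deficient libraries. Between 540 and 1305 reads lay behind each Ddc value. A full separation upward, as seen in Ddc, occurred in 172 of 20317 tested genes (0.847%), and 111 (0.546%) lay wholly lower. The authors' deposited table gives Ddc a log2 fold change of 0.69 with a standard error of 0.13 and an adjusted p of 0.00177, the value by which it was chosen. Of 21045 genes with an adjusted p there, 3 (0.0143%) were under 0.05. Just inside that threshold was Sp3os at 0.0236 and just outside it 1700030C10Rik at 0.0589, both in the authors' deposited table.

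The deposited TPM values, which also divide by transcript length, put Ddc at 49.7, 57.2, 44.2 and 48.6 in deficient libraries. In heterozygous libraries they were 27.6, 32.4, 34.3 and 32.7, and in wildtype libraries 32.0 and 35.3. Here too the deficient and fertile libraries did not overlap, while heterozygous and wildtype libraries did. TPM and CPM of Ddc rose and fell together over the libraries (r = 0.98 on log2 values, n = 10, from the same reads).

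**Figure D1:**
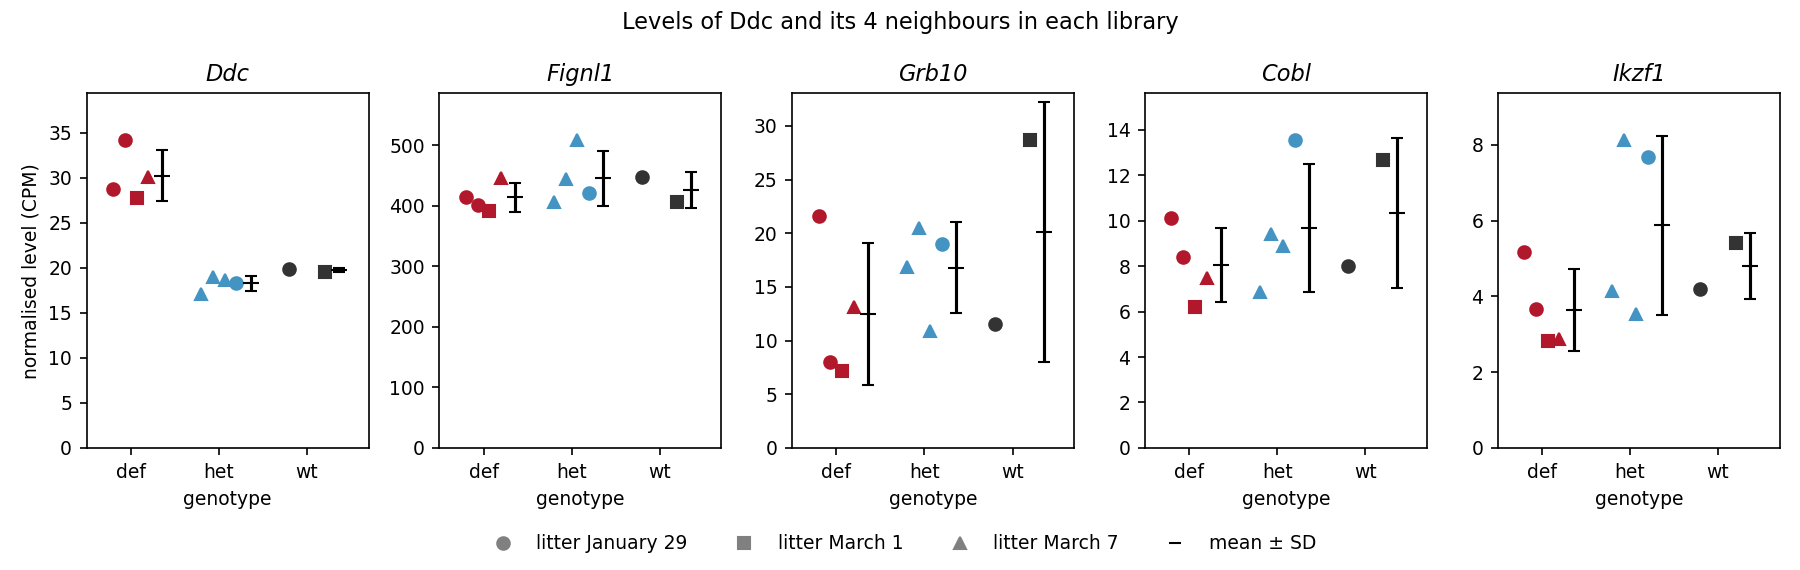
Normalised level (CPM, linear axes from 0) of Ddc, Fignl1, Grb10, Cobl and Ikzf1 in each library, by genotype: deficient (def, n = 4), heterozygous (het, n = 4) and wildtype (wt, n = 2). Point shape gives the litter date and black bars the mean ± SD; the 4 deficient Ddc points, 27.8 to 34.2 CPM, lie above all fertile ones, while the neighbours' genotypes overlap.

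Taf4b itself, the targeted gene, was at 56.1 to 64.9 CPM in deficient and 144 to 234 CPM in fertile libraries (log2 fold change -1.64, adjusted p = 0.0117). It thus separated the deficient from the fertile libraries, but heterozygous (144 to 234 CPM) and wildtype libraries (152 and 207 CPM) overlapped, so it does not check their labels against each other (log2 fold change 0.15, adjusted p = 0.868). Taf4b was the only gene of 20317 (0.00492%) that edgeR called in this comparison at an adjusted p under 0.05. Among the 4 neighbours of Ddc none was called, none had an unadjusted p under 0.05 in edgeR, and DESeq2 called none with or without litter date as a term. Over all tested genes, 403 (1.98%) were higher and 472 (2.32%) lower at an unadjusted p under 0.05, and DESeq2 called 4 of 20529 (0.0195%). All 4 neighbours had fold changes below 0 (median -0.43), beside a median of -0.01 over all tested genes.

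Fignl1, the neighbour closest to Ddc, had an even level in the counts. Its deficient libraries gave 415, 402, 392 and 447 CPM. Its heterozygous libraries gave 406, 445, 509 and 421 CPM and its wildtype libraries 448 and 406 CPM. The genotypes overlapped, and all libraries lay between 392 and 509 CPM. The log2 fold change was -0.07 (SE 0.10, edgeR adjusted p = 0.918). Its 95% interval was -0.30 to 0.15.

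The TPM values of Fignl1 did not follow its counts. The deficient libraries gave 222, 37.2, 202 and 119 TPM. The heterozygous ones gave 202, 111, 288 and 235 TPM, and the wildtype ones 114 and 59.4 TPM. The highest was thus 7.75 times the lowest, with no separation by genotype, and the correlation of log2 TPM with log2 CPM was 0.33 (n = 10, the same reads). The SD over libraries of log2(TPM/CPM) was 0.92 for Fignl1, at percentile 99.76 of 10877 genes, whose median was 0.11. For Ddc that SD was 0.08, below the median. The TPM came from StringTie and the counts from featureCounts, and 7 transcripts are annotated at Fignl1. Whether reads were assigned differently among them was not tested.

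**Figure D2:**
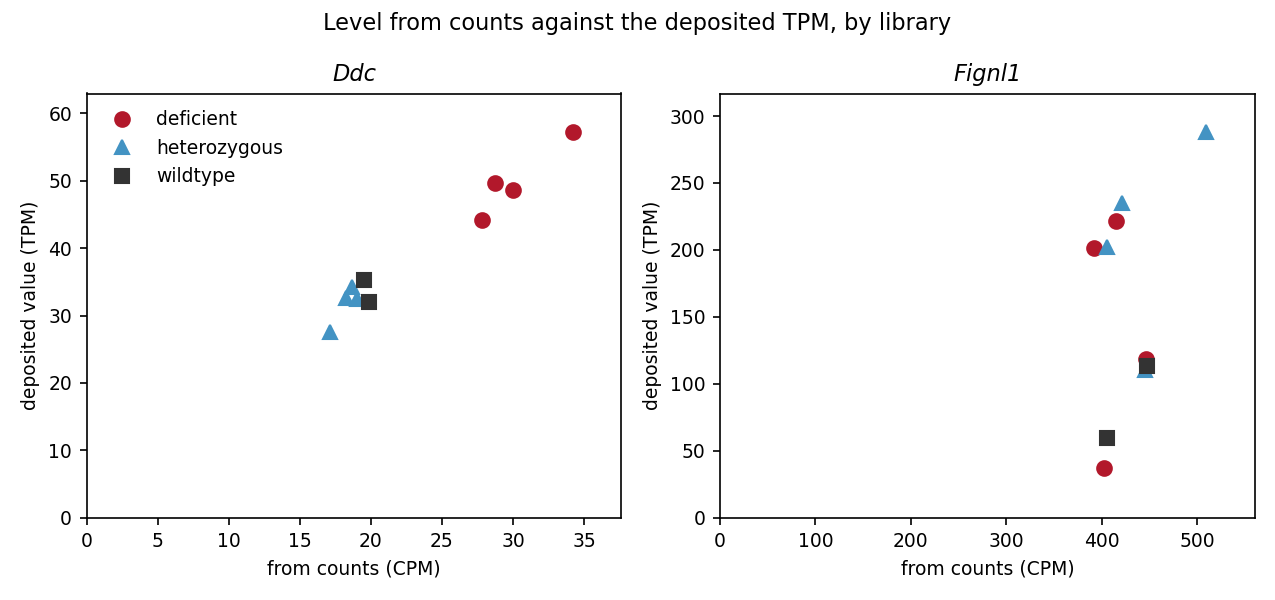
Level from the counts (CPM, horizontal) against the deposited TPM (vertical) of Ddc and Fignl1, 1 point per library (4 deficient, 4 heterozygous, 2 wildtype), linear axes from 0. The Ddc points lie along a line, while Fignl1 runs from 37.2 to 288 TPM at nearly constant CPM.

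Grb10, the neighbour upstream of Ddc, varied widely within each genotype. Its deficient libraries gave 21.6, 7.97, 7.13 and 13.2 CPM. The heterozygous libraries gave 16.8, 20.5, 10.9 and 19.0 CPM, and the wildtype libraries 11.6 and 28.7 CPM. The lowest values were in deficient replicates 2 and 3 and the highest in wildtype replicate 2, with much overlap between genotypes. The log2 fold change was -0.56 (SE 0.37, edgeR adjusted p = 0.904, 95% interval -1.37 to 0.25). Both a large fall and no change lie within that interval. Left out in turn, single libraries moved it between -0.96 and -0.13.

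Cobl also overlapped between genotypes. The deficient libraries gave 10.1, 8.41, 6.21 and 7.47 CPM, the heterozygous ones 6.84, 9.41, 8.87 and 13.6 CPM, and the wildtype ones 7.99 and 12.7 CPM. The log2 fold change was -0.31 (SE 0.24, edgeR adjusted p = 0.904, 95% interval -0.84 to 0.22), no larger than the spread between libraries allows.

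Ikzf1 gave 5.16, 3.67, 2.83 and 2.89 CPM in deficient libraries. The heterozygous libraries gave 4.13, 8.14, 3.54 and 7.68 CPM, and the wildtype libraries 4.19 and 5.41 CPM. The high values were in heterozygous replicates 2 and 4, and the genotypes overlap. The log2 fold change was -0.55 (SE 0.30, edgeR adjusted p = 0.904, 95% interval -1.21 to 0.12). Summed blood and macrophage markers, the lineage Ikzf1 is known from, ran from 34.9 to 41.8 CPM in deficient, 15.8 to 30.8 in heterozygous and 26.8 to 42.3 in wildtype libraries. Of the 25 such markers tested, 18 were higher and 7 lower in deficient libraries and none was called, with 6 of them higher at an unadjusted p under 0.05 (1.98% of all tested genes were) and DESeq2 calling none. Their part in the Ikzf1 values was not tested.

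Grb10, Cobl and Ikzf1 moved together from library to library. Over the 10 libraries, Pearson r was 0.70 for Grb10 with Cobl (Spearman rho 0.70), 0.73 for Grb10 with Ikzf1 (rho 0.79) and 0.76 for Cobl with Ikzf1 (rho 0.78). Permutation p-values (two-sided, 100000 resamples) were 0.0237, 0.0175 and 0.0122 for r and 0.0297, 0.00898 and 0.0111 for rho. Adjusted over the 6 neighbour pairs by Benjamini-Hochberg they were 0.0474 for each r, and 0.0595, 0.0334 and 0.0334 for rho. Without the 2 libraries farthest from the median of the first gene, r was 0.42, 0.70 and 0.67, so that the first pair rests in part on those libraries. Fignl1 showed no such relation, with r between -0.04 and 0.05 in its 3 pairs. Grb10, Cobl and Ikzf1 all had fold changes below 0 in deficient libraries, and the permutations crossed the genotypes. A difference shared by genotype, or a shared scaling, therefore enters these r values. The share of other gene pairs with such r was not computed.

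Set against its neighbours within each library, Ddc kept its separation by genotype. The difference in log2 CPM between Ddc and Fignl1 lay between -3.89 and -3.55 in deficient and between -4.77 and -4.37 in fertile libraries. Against Cobl the lowest deficient library, 1.503, lay above the highest fertile one, 1.32, and against Ikzf1 the ranges were 2.46 to 3.35 and 1.22 to 2.38. Against Grb10 the ranges overlapped, 0.41 to 2.09 and -0.55 to 0.78. These differences inherit the choice of Ddc and carry no test.

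Within 1 Mb on either side of Ddc the annotation (GENCODE M21) holds 23 genes, of which 8 passed the filter on low counts, 11 had reads but were not tested and 4 had no read. Besides the 5 members the tested ones were Vwc2, Zpbp and 1700042O10Rik. Of the 7 tested genes other than Ddc, 1 had a fold change above 0 and 6 below it, and none was called. The one above was 1700042O10Rik, an antisense gene inside Ddc, at 1.70, 2.52, 0.854 and 0.954 CPM in deficient and 0.611 to 1.40 CPM in fertile libraries. Its log2 fold change was 0.51 (SE 0.37, adjusted p = 0.904). The strand setting of the counting is not given in the sources used here, so its reads, 21 to 96 per library, and those of Ddc cannot be told apart with certainty.

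The other genes of the window did not pass the test. Vwc2, which encodes a secreted BMP antagonist, had 5 to 50 reads per library and lay at -1.12 (log2, SE 0.41, adjusted p = 0.904, unadjusted p under 0.05). Zpbp, which encodes a zona pellucida binding protein of sperm, lay at -0.66 (SE 0.39, adjusted p = 0.904). Both had values above 0 in heterozygous against wildtype libraries, 1.33 (adjusted p = 0.482) and 0.81 (adjusted p = 0.762).

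**Figure D3:**
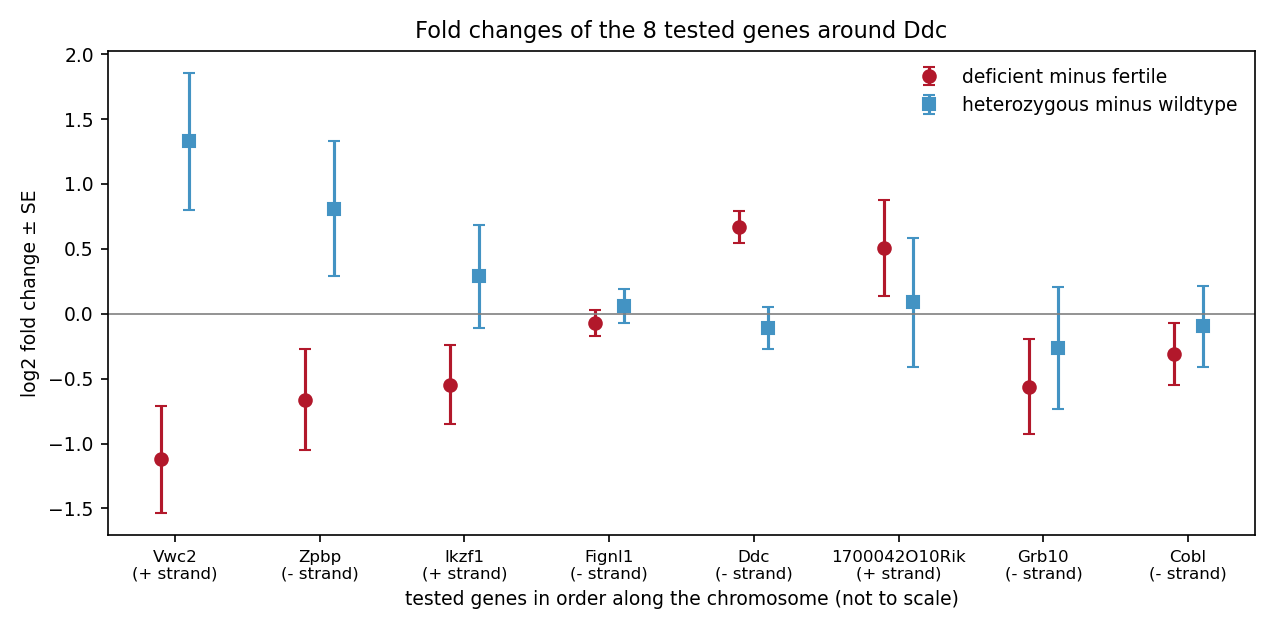
Log2 fold change ± SE (vertical) of the 8 tested genes around Ddc, in order along the chromosome and not to scale, for deficient minus fertile (circles) and heterozygous minus wildtype (squares) libraries. In the first comparison Ddc (0.67) and the antisense 1700042O10Rik inside it (0.51) lie above 0 and the other 6 below.

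Heterozygous and wildtype libraries were then compared, a contrast that holds no deficient library. These fertile libraries also entered the fit by which Ddc was chosen, so the contrast is not free of that choice. For Ddc the log2 difference was -0.11 (SE 0.16, adjusted p = 0.881), with a 95% interval of -0.46 to 0.24 that lies below 0.67, the value described between deficient and fertile libraries. Fignl1 was at 0.06 (SE 0.13, adjusted p = 0.922), Grb10 at -0.26 (SE 0.47, adjusted p = 0.905), Cobl at -0.10 (SE 0.31, adjusted p = 0.950) and Ikzf1 at 0.29 (SE 0.40, adjusted p = 0.873). No member was called or had an unadjusted p under 0.05 in edgeR, and DESeq2 called none. Of all genes, edgeR called 1 of 20317 (0.00492%) in this comparison and DESeq2 451 of 19757 (2.28%), and 1259 (6.2%) were higher and 427 (2.1%) lower at an unadjusted p under 0.05 in edgeR. On the TPM scale Fignl1 differed more, by 1.26 (log2 of TPM with a pseudocount of 0.1), and was not called there either.

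The second question was whether the Ddc values follow meiotic stage. A stage score was formed for each library as the mean log2 CPM of 25 meiotic recombination genes minus that of 24 pluripotency and early germ cell genes, neither list holding a member. Female germ cells lose the second programme as they enter the first, so a higher score is a later mix of cells. The deficient libraries scored -0.22, 0.78, -2.18 and -0.64, the heterozygous ones -2.18, 1.63, 1.34 and 1.28, and the wildtype ones -0.43 and -0.09. The scores overlapped widely between deficient (-0.56 ± 1.23, SD, n = 4) and fertile libraries (0.26 ± 1.46, SD, n = 6), and an exact two-sided permutation test of the difference gave p = 0.357 over 210 arrangements. Of the 25 meiotic genes, 4 were higher and 21 lower in deficient libraries (median log2 fold change -0.40). Of the 24 pluripotency and early germ cell genes, 22 were higher and 2 lower (median 0.28). No gene of either list was called by edgeR or DESeq2 or had an unadjusted p under 0.05 in edgeR. The score is built from these same genes, so the splits restate the lower mean score of the deficient libraries.

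Ddc levels were also set side by side for libraries with like scores. Deficient replicate 3 and heterozygous replicate 1 had nearly equal scores, both -2.18, and Ddc levels of 27.8 and 17.1 CPM. Paired by nearest score, deficient replicate 1 (28.7 CPM) stood beside wildtype replicate 2 (19.5 CPM) and deficient replicate 4 (30.0 CPM) beside wildtype replicate 1 (19.9 CPM). Deficient replicate 2 scored 0.78, and the fertile library nearest to it was heterozygous replicate 4 at 1.28, with 34.2 and 18.3 CPM. The 4 ratios of Ddc, deficient over fertile, ran from 1.47 to 1.87. Since every deficient library exceeded every fertile one, any pairing would put the deficient library higher. These ratios inherit the choice of Ddc and are no test of stage.

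With the stage score as a covariate, the Ddc log2 fold change was 0.70 (SE 0.10), beside 0.67 (SE 0.12) without it. The fitted slope of Ddc on the score was 0.05 per unit (SE 0.04, adjusted p = 0.344), in a fit where 5012 of 20317 genes were called for the score. The slopes of the neighbours were 0.04 for Fignl1 (adjusted p = 0.497), 0.07 for Grb10 (adjusted p = 0.778), 0.18 for Cobl (adjusted p = 0.121) and 0.19 for Ikzf1 (adjusted p = 0.227). No member was among the genes called for the score.

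Because the Ddc values form separate clusters by genotype, its correlation with the score was read within the fertile libraries, where r was 0.40 (Spearman rho 0.09, n = 6, exact two-sided permutation p = 0.433 and 0.919). Adjusted over the 5 members these were 0.542 and 0.919. Without the 2 fertile libraries farthest from their median score, r was -0.97 over the 4 left, so the sign rests on those libraries. In the deficient libraries, at scores of -2.18, -0.64, -0.22 and 0.78, Ddc was at 27.8, 30.0, 28.7 and 34.2 CPM. There the lowest level was at the lowest score and the highest at the highest, and r was not computed. Of the neighbours over all 10 libraries, Cobl had the highest r with the score, 0.66 (rho 0.73), with permutation p-values of 0.0380 and 0.0206 and adjusted values of 0.190 and 0.103. Without deficient replicate 3 and heterozygous replicate 1, the 2 lowest scores, r of Cobl was 0.30. Ikzf1 had r = 0.58 (adjusted permutation p = 0.194), Fignl1 0.53 (0.198) and Grb10 0.23 (0.644), none past the threshold.

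**Figure D4:**
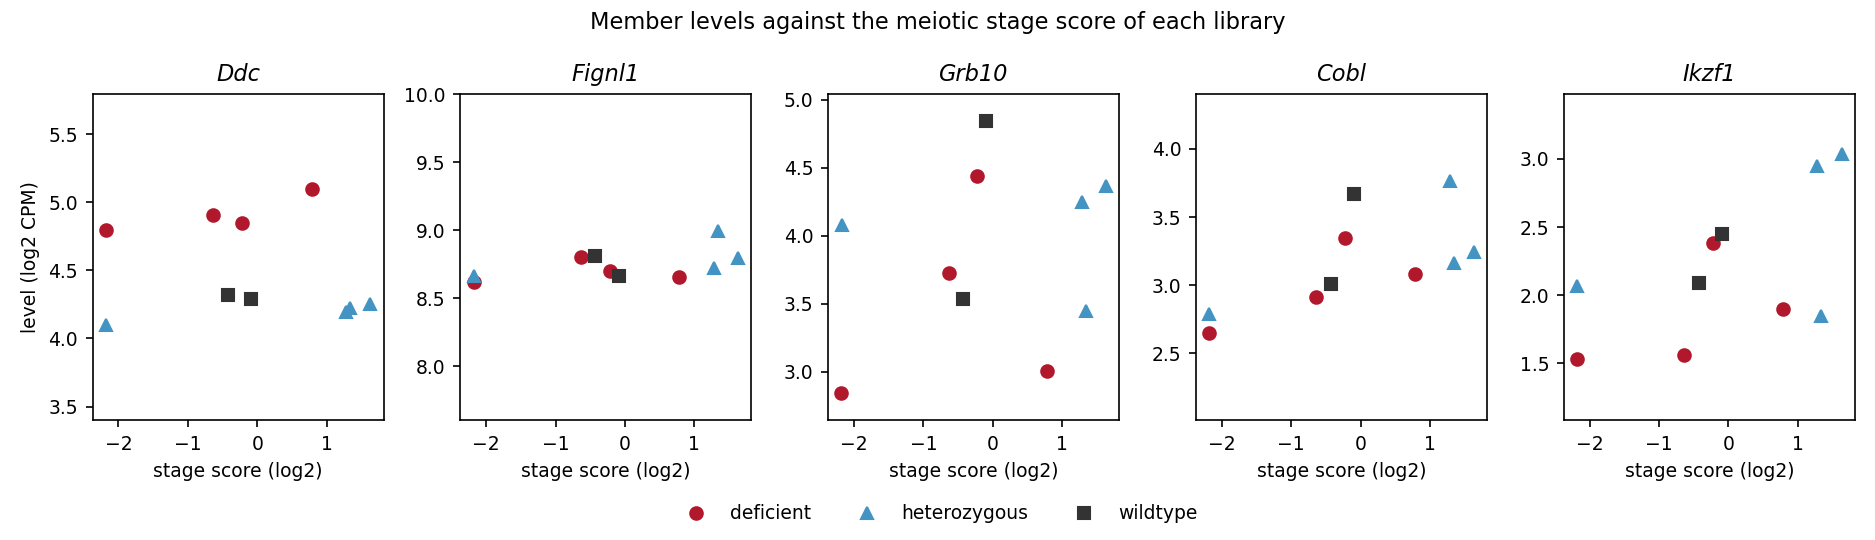
Level (log2 CPM) of each member against the meiotic stage score (log2 units) of each library, 1 point per library; all panels span the same number of log2 units. The 4 deficient Ddc points, at scores of -2.18 to 0.78, lie above all fertile ones, 3 of which have scores beyond that range (1.28 to 1.63), while the deficient points of the neighbours lie among or below the fertile ones.

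Ddc was also read within each litter date. In log2 CPM, deficient libraries exceeded fertile ones by 0.72 on January 29 (2 against 2 libraries). The excess was 0.51 on March 1 (1 against 1) and 0.72 on March 7 (1 against 3). On each date every deficient library was the higher, which the full separation over all libraries already fixed. The direction is therefore no test of litter date. On the same dates Fignl1 differed by -0.09, -0.05 and -0.02. Grb10 differed by -0.17, -2.001 and -0.24, Cobl by -0.17, -1.02 and -0.15, and Ikzf1 by -0.38, -0.92 and -0.76. The widest differences of Grb10, Cobl and Ikzf1 were all in the single pair of March 1, deficient replicate 3 and wildtype replicate 2. With 1 library in an arm, most dates allow no test of their own.

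Deficient replicates 2 and 4 and heterozygous replicate 3 stood apart from the rest in Gm23935, a gene model with reads resembling ribosomal RNA, at 87.4 to 454 CPM against 4146 to 5068 in the other libraries. Without these 3 libraries the Ddc log2 fold change was 0.58 (SE 0.15). Over all 26 alternatives it ran from 0.58 to 0.73 and no alternative moved it by the spread between replicates.

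**Figure D5:**
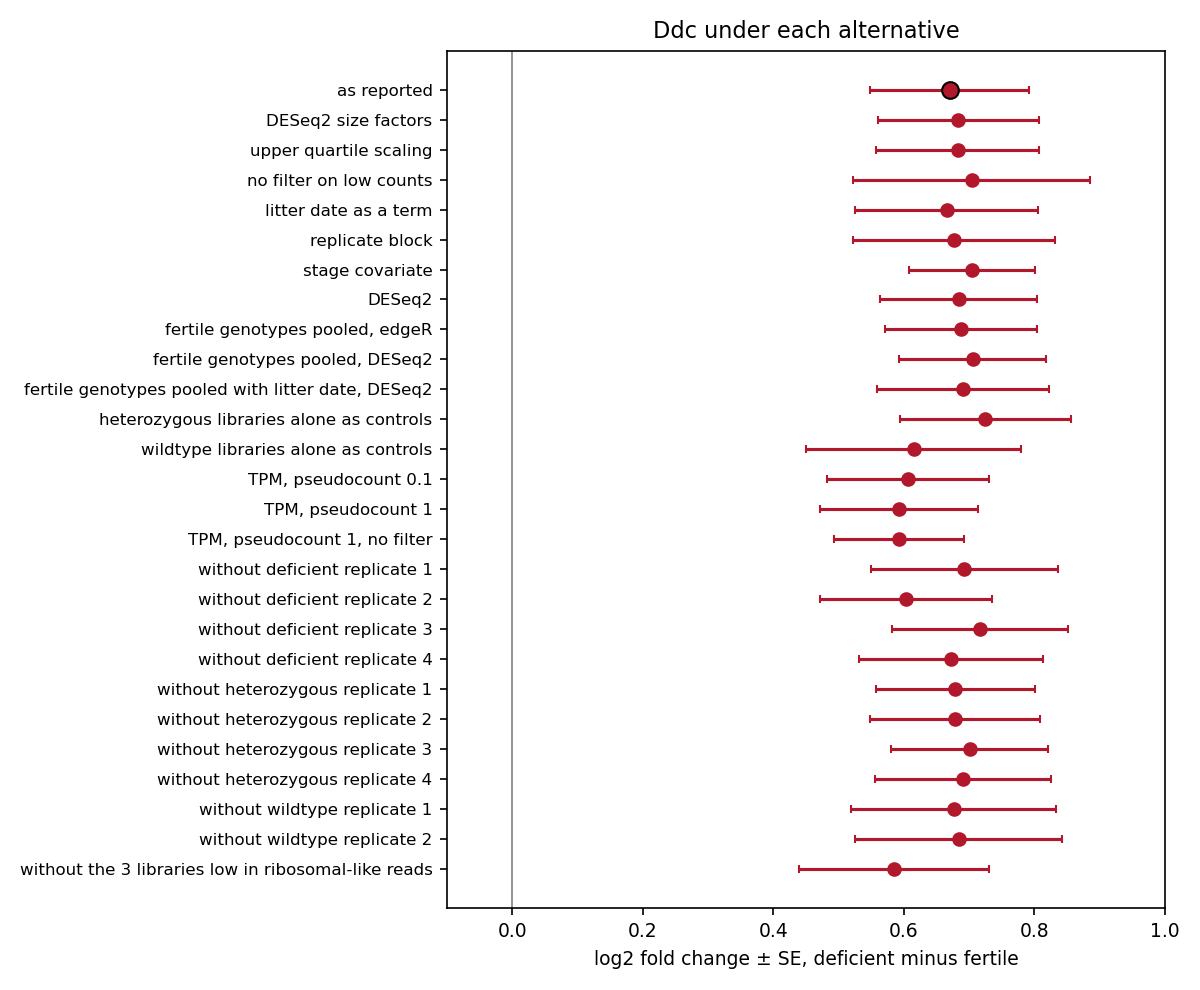
Log2 fold change ± SE of Ddc, deficient minus fertile (horizontal), as reported and under 26 other settings (vertical), including each library left out. Every value lies between 0.58 and 0.73, with 0.67 as reported (black).

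The labelled cell type was checked against its markers. Summed over 8 germ cell markers, levels ran from 5105 to 5235 CPM in deficient, 4765 to 5043 in heterozygous and 4846 to 5134 in wildtype libraries. Of the 8, 7 were higher and 1 lower in deficient libraries, with none called by edgeR or DESeq2 and none at an unadjusted p under 0.05. Pou5f1, Kit, Tfap2c and Nanos3 of these markers are also part of the stage score, so the split is not independent of that score. As Ddc is also made by kidney epithelium and by sympathoadrenal cells, markers of both were read. Mesonephros and kidney markers summed to 313 to 433 CPM in deficient, 232 to 430 in heterozygous and 300.0 to 316 in wildtype libraries. Sympathoadrenal and neural markers summed to 283 to 295, 225 to 267 and 272 to 288 CPM, so that the deficient libraries lay above the heterozygous and overlapped the wildtype ones. Gata2 alone made 212 to 274 CPM of that sum. Of the kidney sum Epcam made the most, with 154 to 312 CPM, followed by Krt18 (30.3 to 59.5), while Cubn, Lhx1 and Gata3 had medians of 21.02, 13.35 and 13.1 CPM. The kidney markers Slc34a1 and Cdh16 were at a median of 0 CPM and Hnf4a at 0.0290. Of the sympathoadrenal markers, Hand2 had no read in any library. Of 10 tested kidney markers 7 were higher and 3 lower in deficient libraries, and of 10 tested sympathoadrenal markers 9 were higher and 1 lower, none called by edgeR or DESeq2 and none at an unadjusted p under 0.05. Supporting and steroidogenic gonad markers summed to 32.9 to 44.3, 24.2 to 45.6 and 24.8 to 49.4 CPM, and endothelial ones to 97.6 to 383, 71.9 to 391 and 181 to 234 CPM. Pecam1 alone made 64.8 to 380 CPM of the endothelial sum. The other endothelial markers had medians from 0.0279 (Emcn) to 4.67 CPM (Egfl7). The part of these cells in the Ddc values was not tested. In bulk RNA, more cells with a transcript and more transcript per cell cannot be told apart.

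The genes that work with Ddc did not pass the test. Of 15 other tested genes of monoamine synthesis and handling, 8 were higher and 7 lower in deficient libraries and none was called, with 1 lower at an unadjusted p under 0.05 (2.32% of all tested genes were) and DESeq2 calling none. Their median log2 fold change was 0.01, beside -0.01 over all tested genes. Th, tyrosine hydroxylase, was at 0.758 ± 0.345 CPM (SD, n = 4) in deficient and 0.752 ± 0.27 (SD, n = 6) in fertile libraries. Tph1, the peripheral tryptophan hydroxylase, was at 0.304 and 0.228 CPM. Tph2 and Dbh had at most 8 and 4 reads in any library and were not tested. The hydroxylases that supply substrate to AADC thus gave few reads in every group.

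Genes that pack and degrade monoamines were lower in value without passing the test. Slc18a2, the vesicular transporter, was at 2.72 and 4.37 CPM in deficient and fertile libraries (log2 fold change -0.54, SE 0.24, adjusted p = 0.904). Maoa, a monoamine oxidase, was at 46.4 and 67.4 CPM (-0.47, SE 0.25, adjusted p = 0.904) and Maob at 2.05 and 3.16 CPM (-0.63, SE 0.45, adjusted p = 0.904). In heterozygous against wildtype libraries 8 of the 15 were higher and 7 lower, none called by either tool and none at an unadjusted p under 0.05.

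The recombination partners of Fignl1 did not pass the test. Of 26 other tested genes that encode FIGNL1 partners, its paralogs or factors of homologous recombination, 12 were higher and 14 lower in deficient libraries (median log2 fold change -0.05), none was called by edgeR or DESeq2, and 2 were lower at an unadjusted p under 0.05, beside 2.32% of all tested genes. Those were Fignl2, a paralog, at 0.548 and 1.37 CPM (-1.30, SE 0.39) and Rad51d at 12.3 and 17.3 CPM (-0.47, SE 0.18), both at an adjusted p of 0.904 in edgeR. BC055324, which encodes the FIGNL1 partner FLIP in mouse, was at 164 and 187 CPM (-0.16, adjusted p = 0.909). Dmc1, the meiotic recombinase, was at 66.3 and 86.7 CPM (-0.20, adjusted p = 0.952). Dmc1, Hsf2bp, Psmc3ip and Mnd1 of this list are also part of the stage score. Between heterozygous and wildtype libraries 18 of the 26 were higher and 8 lower, again with none called and none at an unadjusted p under 0.05.

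For Grb10, 26 other tested genes listed under insulin and IGF receptor signalling split 14 higher and 12 lower in deficient libraries (median 0.02). None was called by edgeR or DESeq2 and none had an unadjusted p under 0.05. Among the higher ones the list holds Pdk1 (0.32), in mouse the symbol of a pyruvate dehydrogenase kinase, which is outside this pathway. Igf1r was at 24.0 and 38.9 CPM (-0.64, SE 0.38, adjusted p = 0.904), Irs4, an insulin receptor substrate, at 0.307 and 0.692 CPM (-1.06, SE 0.56, adjusted p = 0.904) and Insr, the insulin receptor, at 23.7 and 22.2 CPM (0.05, SE 0.26, adjusted p = 0.982). In heterozygous against wildtype libraries 11 were higher and 15 lower, edgeR called none with 4 higher at an unadjusted p under 0.05, and DESeq2 called 1, Pik3ca. Over all genes those shares were 6.2% and 2.28%. For Cobl, 17 other tested actin nucleation genes split 8 higher and 9 lower (median -0.08), none called by either tool and 1 lower at an unadjusted p under 0.05, beside 2.32% of all tested genes. That one was Pacsin3, of the syndapin family, at 6.92 and 10.6 CPM (-0.62, SE 0.22, adjusted p = 0.904), and the next smallest p was that of Lmod1, a leiomodin, at 0.506 and 0.762 CPM (-0.61, adjusted p = 0.904). In heterozygous against wildtype libraries 7 were higher and 10 lower, edgeR called none with 2 higher at an unadjusted p under 0.05, and DESeq2 called 1, Spire1, beside 6.2% and 2.28% of all genes.

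The rest of the Ikaros family also stayed short of the threshold. Ikzf2 was at 2.04 and 2.24 CPM in deficient and fertile libraries (-0.07, adjusted p = 0.967), Ikzf4 at 1.23 and 2.32 CPM (-0.76, adjusted p = 0.904) and Ikzf5 at 2.77 and 2.29 CPM (0.24, adjusted p = 0.909). Ikzf3 had at most 6 reads in a library and was not tested. DESeq2 called none of the 3, and none had an unadjusted p under 0.05 in edgeR. Of the TFIID genes beside Taf4b, its paralog Taf4 was at 7.16 and 6.68 CPM (0.09, adjusted p = 0.959) and Tbp at 98.8 and 88.5 CPM (0.16, adjusted p = 0.904).

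The genes whose levels ran most like Ddc over the 10 libraries, among 10097 with an assigned symbol and a mean of at least 5 CPM, were Sp3os (r = 0.94), Ccdc28a (0.94), Prdx4 (0.91), Psph (0.91) and Rwdd1 (0.90). Sp3os, an antisense transcript at Sp3, was at 32.9 CPM in deficient and 23.8 in fertile libraries and is the third gene called in the authors' deposited table. Prdx4, an endoplasmic reticulum peroxiredoxin, was at 443 and 349 CPM, and Psph, the last enzyme of serine synthesis, at 39.9 and 30.7 CPM. Their log2 fold changes in the same comparison lay between 0.30 and 0.48, smaller than that of Ddc. Fignl1 ran most like Pisd (0.95), Chmp7 (0.94), Cnpy3 (0.94), Elac2 (0.93) and Fech (0.93), none of which lies among the members. These r values are a description, since the libraries share genotype and scaling.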

How the data were processed

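Reads were trimmed with Trim Galore 0.5.0, aligned to GRCm38 with HISAT2 2.1.0, counted with featureCounts (Subread 1.6.2) and turned into TPM with StringTie 1.3.3b by the authors, per the submitters' processing notes. The sources used here do not state the strand setting or the annotation release. The deposited counts are raw reads per gene, and the deposited TPM are scaled for depth and transcript length. The deposited DESeq2 table of the authors holds a signal (baseMean, the mean of size-factor-scaled counts), a log2 fold change with its error, a test score, a p-value and its adjusted form. DESeq2 1.42.0 with both fertile genotypes pooled and litter date as a term gave those log2 fold changes to within 1.38e-08 over 21049 genes.

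Counts were filtered with filterByExpr by genotype (20317 of 55536 genes) and fitted with TMM in edgeR 4.0.16 (quasi-likelihood, 3 genotype groups, 10 libraries, R 4.3.3). Adjusted p-values are edgeR's Benjamini-Hochberg values over all tested genes unless another tool is named, and 0.05 was the threshold. SE and 95% intervals come from the same test. Log2 CPM used a prior count of 2. CPM of genes that failed the filter use the same library sizes. Correlations used SciPy 1.17.1. The model was checked on simulated counts. Members, lists and alternatives were chosen with earlier results of these data known; 1 alternative, DESeq2 with litter date, was added after seeing the deposited fold changes. Named genes were the members, tested genes within 1 Mb, Taf4b, per list the called or else the 2 with the smallest p plus genes set in advance, and the 5 most like Ddc and Fignl1; Gm23935, 1700030C10Rik, Pik3ca, Spire1 and marker genes fall outside this rule. Some genes of these lists are not reported here by name. Replicate numbers did not pair the libraries. No 2 libraries agreed within sampling noise (lowest chi-square per degree of freedom 10.59).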

Additional observations from a re-analysis of the deposited data

Results flagged for a closer look

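Heterozygous replicate 1 had a stage score of -2.18, while the other 3 heterozygous libraries scored between 1.28 and 1.63, a gap of 0.908 of the group's whole range. It was the only one of 28 groups of libraries tested in which 1 library stood apart from the others, where chance flags about 1 group in 20. Its Ddc level, 17.1 CPM, was the lowest of the 10 libraries, and without it the Ddc log2 fold change was 0.68.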

How the results depend on the processing

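In deficient against fertile libraries each of the 5 members kept its sign and, for the 4 neighbours, its side of the threshold under all 26 alternatives. Ddc ran from 0.58 to 0.73, and the neighbours' adjusted p-values were never below 0.426. The count of called genes, 1 as reported, was 0 with litter date as a term, with the replicate block, with wildtype controls alone, in every TPM fit and without the 3 libraries low in ribosomal-like reads. It was 3 with heterozygous controls alone, 4 in DESeq2, 10 in DESeq2 with the fertile genotypes pooled, and 3 in that fit with litter date, an alternative chosen after seeing the data. Leaving out single libraries gave 0 to 1: it was 0 without any one of the 4 deficient libraries and without wildtype replicate 2.

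In heterozygous against wildtype libraries no member was called under any of 21 alternatives, but signs of values near 0 changed. Fignl1 (0.06 as reported) was -0.0146 with upper quartile scaling, -0.0694 with litter date and -0.0053 without the 3 libraries, and Cobl (-0.10) was 0.15 with litter date. In the TPM fits Grb10 (-0.26) was 0.0257 at a pseudocount of 0.1 and 0.00648 at 1, with or without the filter, and Cobl was 0.0764 and 0.0659. With single libraries left out, Fignl1 ran from -0.058 to 0.13, Grb10 from -0.78 to 0.48 and Cobl from -0.39 to 0.22. The count of called genes, 1 as reported, was 268 with no filter, 0 with litter date, 0 with the replicate block, 3 with the stage covariate, 451 in DESeq2, 0 in the TPM fits at both pseudocounts, 14 in TPM with no filter and 186 without the 3 libraries. It was 0 whichever library was left out. The cause of these shifts was not tested.

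Correlations with the stage score stayed past no threshold under either alternative. The r of Fignl1 (0.53) was -0.15 on log2(TPM + 1), and that of Grb10 (0.23) was -0.0593 without the 2 libraries farthest from the median score. Of 8 pairs of libraries sharing a replicate number 5 correlated above 0.1 (range -0.54 to 0.49), and 3 libraries correlated best with their own number, so the numbers were not taken to pair them; with the replicate block the Ddc value was 0.68. With 2 wildtype libraries, and 1 when one is left out (assumed to vary like the other groups), small differences between the fertile genotypes were not detectable.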
